A study of Oryza sativa with 6 samples.

Results

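The genes read in wild type young rice inflorescences are described here from 3 Affymetrix rice arrays, all those labelled as wild type 4-5 mm inflorescence, out of 6 arrays in the series. Each gene is represented by 1 probe set, the one with the highest mean over these 3 arrays, which gives 17905 genes, of which 2457 carry a gene name and the rest a locus number alone. The arrays carry total RNA, extracted with Trizol, from 3 biological replicates of the Japonica variety 9522 grown in a paddy field. The inflorescences were 4 to 5 mm long, a length at which, per the labels, most spikelets have started to form stamens and carpels and the gene SRO is at its highest. The other arrays, from the sro mutant, were not used. For each array 500 ng of RNA was made into biotinylated cRNA. With 1 group, levels and spread are given and no test.

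The rice inflorescence is a branched panicle whose branch tips turn into spikelet meristems, and each spikelet meristem makes bract-like organs and then a floret. Floral organs are specified by MADS-box transcription factors acting in combination: A-, B-, C- and E-class proteins assemble on the same target genes. KNOX homeobox proteins keep meristem cells undifferentiated, YABBY and HD-Zip III proteins set the faces of organs, and auxin and cytokinin set where organs start and how long a meristem stays active. A young inflorescence is also a dividing tissue, in which the MCM2 to MCM7 helicase opens DNA for copying and cyclins with their kinases drive the cycle.

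Of the 17905 genes, 13257 (74.0%) read above background on all 3 arrays, 4074 (22.8%) at background on all 3, and 574 (3.21%) differed between arrays and are called undecided. Background on an array is the highest signal among 10 control probe sets designed for the fungus Magnaporthe. On each array it was the same probe set, for the elongation factor gene ef1a. That level was 6.01 on the log2 scale on replicate 1, 5.83 on replicate 2 and 5.76 on replicate 3. This probe set averaged 5.86 and the next highest control 5.06. Whether it binds rice RNA was not tested. With the mean of the 10 controls as the limit, 2397 genes were at background. ACS1, CCD7, KIN7A, EUI and CHLI, called at background below, were above that mean on all 3 arrays. Among genes above background, the 25% with the highest mean are called bright, the 25% with the lowest mean dim, and the rest middle. Bright genes averaged 10.61 or more and dim genes less than 8.24. These are levels of probe sets, and probes differ in how well they bind, so a brighter gene need not have more transcripts. In whole inflorescences, fewer cells of a type and less RNA per cell cannot be told apart.

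**Figure D1:**
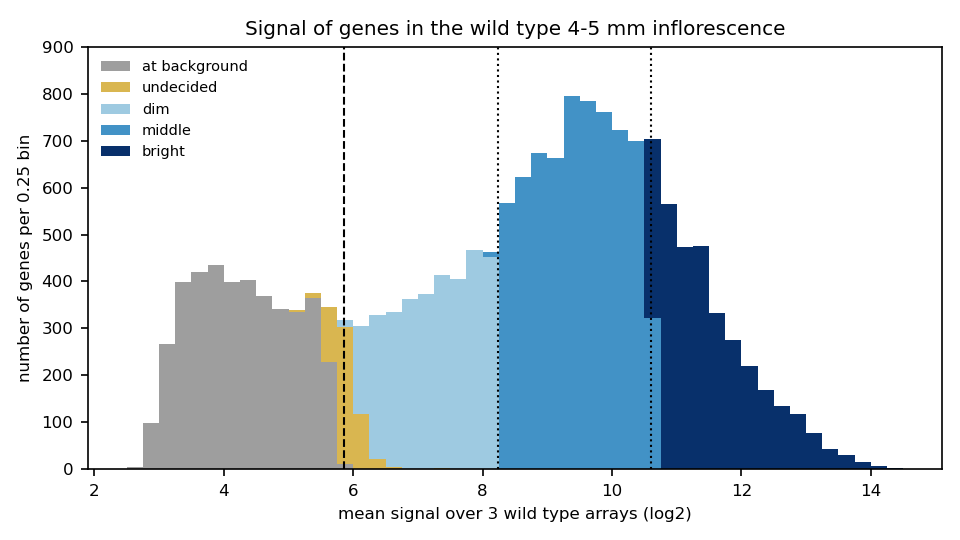
Number of genes (y axis, bins of 0.25) by mean log2 signal over the 3 wild type arrays (x axis), coloured by class. The dashed line is the mean of the background level over the arrays (5.86), and the dotted lines bound the dim (below 8.24) and bright (from 10.61) genes; 13257 of 17905 genes lie above background.

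The brightest named gene was GOS2, a translation initiation factor, at 14.14, 14.14 and 14.16 on replicates 1, 2 and 3. HSP81-3 and HSP81-2, chaperones of the HSP90 family, averaged 14.14 and 13.74, and the small heat shock gene hsp17.9 13.52. The zinc finger gene OsSAP8 averaged 14.05, the metallothionein gene MT2C 13.94, TCTP 13.85 and the gene whose symbol is ARF, which is not in the list of auxin response factors, 13.82. RPS21, a protein of the small ribosomal subunit, averaged 13.78, AGO1B, which carries small RNAs, 13.61, the alpha-tubulin gene TID1 13.61 and the elongation factor gene EF-1-alpha 13.59. The SD of these 12 genes over the arrays was at most 0.051. HSP81-3, TID1 and EF-1-alpha, 3 of them, rest on probe sets whose suffix marks possible binding to related sequences. The dimmest probe sets of HSP81-3, RPS21, GOS2 and TCTP averaged 4.23, 6.41, 7.25 and 7.55. Genes with only a locus number filled 8 of the 12 highest places over all genes. Among 23 ribosomal protein genes, 20 were bright and all were above background, with a median of 12.97.

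Most floral organ identity genes of the A, B and E classes were bright, while C-class genes were in the middle or dim and D-class genes at background. The E-class gene OsMADS1, needed for lemma, palea and floret identity, read 12.58, 12.72 and 12.64 on replicates 1, 2 and 3. OsMADS5, another E-class gene, read 12.10, 12.19 and 12.19. OsMADS8 read 11.00, 11.42 and 11.25 and OsMADS7 10.40, 10.75 and 10.64. Of these 4 E-class genes the first 3 were bright, and OsMADS7 fell just under the limit.

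The AP1-like genes of the floral organ identity list, which act in the switch to floral meristem, were all bright. OsMADS18 read 12.36, 12.41 and 12.44, OsMADS15 12.23, 12.17 and 12.16, and OsMADS14 averaged 11.93 (SD 0.082). The dimmest of the 4 OsMADS15 probe sets averaged 5.86 and the dimmest of the 4 for OsMADS14 9.61. The AGL6-like gene OsMADS6 was bright, at 12.06, 12.11 and 12.14, and its relative OsMADS17 was in the middle, at 10.19, 10.42 and 10.40.

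The B-class genes act in lodicules and stamens. OsMADS16 read 11.18, 11.54 and 11.35 and OsMADS2 11.31, 11.29 and 11.37, both bright. OsMADS4 read 9.73, 9.89 and 9.81, in the middle. All 3 were above background on every array.

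The C-class genes act in stamens and carpels. OsMADS58 read 8.77, 9.17 and 9.08, in the middle, while OsMADS3 read 6.05, 6.33 and 6.23, just above the background level of each array. OsMADS3 is undecided when the highest of 64 reporter control probe sets is the limit (6.32, 6.34 and 6.03). The carpel and midrib gene DL, of the YABBY family, read 8.49, 8.33 and 8.60, in the middle.

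The ovule gene OsMADS13 read 4.45, 5.08 and 4.69, at background. With the mean of the fungal controls as the limit (4.72, 4.73 and 4.50) it is undecided. OsMADS21, its D-class relative, read 3.12, 2.96 and 3.04, and OsMADS29, a B-sister gene of ovule and seed, 3.74, 3.48 and 3.73. Both stayed at background under all 3 background levels.

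In all, 9 of 18 floral organ identity genes were bright, 5 in the middle, 1 dim and 3 at background, beside 18.5% bright among all genes. Their median level was 10.91, against 8.68 for all genes. The list was written with earlier results of these arrays known. Replicate 1 was the lowest array for 12 of the 18 genes and replicate 2 the highest for 10. Their median deviations from each gene's own mean were -0.06 and 0.05, beside -0.01 and -0.02 over all genes. No gene of the list had an SD of 0.5 or more.

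**Figure D2:**
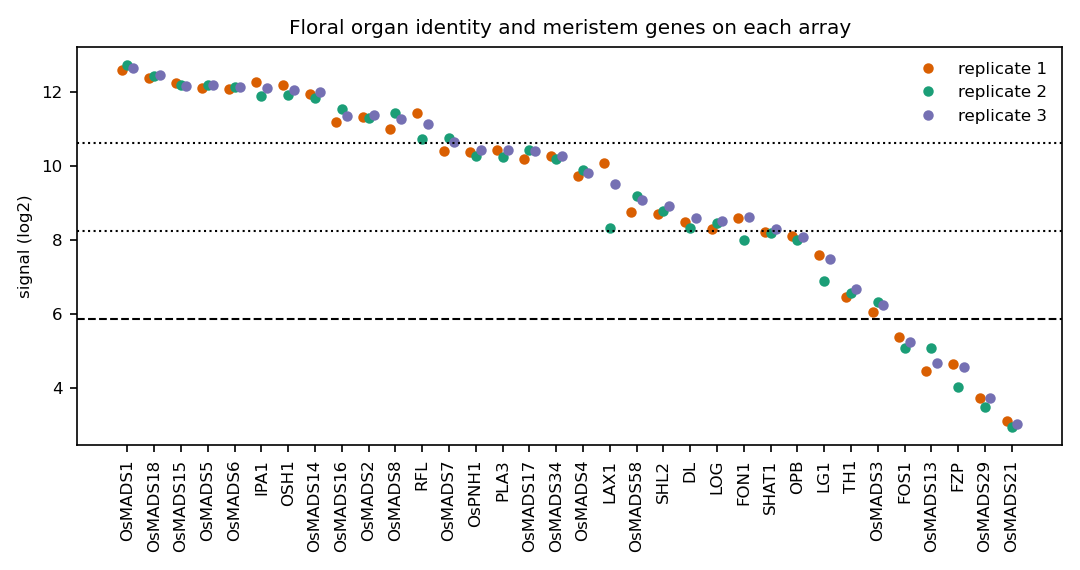
Log2 signal (y axis) of each floral organ identity and meristem gene (x axis, ordered by mean) on the 3 wild type arrays, 1 point per array. The dashed line marks the mean background level (5.86) and the dotted lines the limits of dim (8.24) and bright (10.61); LAX1 has the widest points, from 8.32 to 10.07.

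Among 16 meristem and inflorescence regulators, 3 were bright, 7 in the middle, 4 dim and 2 at background. The bright share of 18.8% was near that of all genes (18.5%) and under that of genes with a name (26.6%). IPA1, an SPL factor that restrains tillering and promotes panicle branching, read 12.27, 11.88 and 12.11. OSH1, the KNOX gene that marks the shoot meristem, read 12.19, 11.90 and 12.06. RFL, the rice relative of LEAFY, read 11.42, 10.73 and 11.12. All 3 were bright, and all 3 were highest on replicate 1 and lowest on replicate 2.

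In the middle class stood OsPNH1, an Argonaute gene of the PINHEAD type, with 10.38, 10.27 and 10.43. PLA3, which limits the rate of leaf initiation, read 10.41, 10.23 and 10.43, although its other probe set averaged 2.76. OsMADS34, an E-class gene that acts in branch and spikelet identity, read 10.27, 10.18 and 10.26. These 3 genes kept within 0.2 on the log2 scale across the arrays.

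LAX1, a basic helix-loop-helix factor required for axillary meristems, read 10.07, 8.32 and 9.51. Its SD of 0.90 was the widest of this list. SHL2 read 8.70, 8.77 and 8.90. LOG, which activates cytokinin in the meristem tip, read 8.31, 8.46 and 8.52, with its other probe set at 3.20. FON1, a receptor kinase that limits floral meristem size, averaged 8.40 (SD 0.35) and was lowest on replicate 2.

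The AP2 gene SHAT1 averaged 8.24, just inside the dim class, and OPB 8.06. LG1, the SPL gene of the ligule, read 7.59, 6.88 and 7.48 and TH1, a G1-like gene of lemma and palea shape, 6.46, 6.58 and 6.68. FOS1 read 5.39, 5.09 and 5.24, at background although above the mean of the fungal controls on every array. FZP, an ERF factor that gives spikelet identity, read 4.64, 4.04 and 4.58, at background, and is undecided with the mean of the fungal controls as the limit. Replicate 2 was the lowest array for 13 of the 16 regulators and the highest for 0. The same count over all genes was not made. The median deviation of the regulators was 0.10 on replicate 1, -0.14 on replicate 2 and 0.07 on replicate 3. Over all genes it was -0.01, -0.02 and 0.03.

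Over the 18 lists of transcription factors, G1-like genes included, which hold 233 genes counted once each, 169 (72.5%) were above background and 47 (20.2%) bright. The shares were 74.0% and 18.5% over all genes and 78.2% and 26.6% over genes with a name, from which the lists were drawn. The lists hold only genes with a matching symbol, so they are partial. The listed growth-regulating factors, SPL and TCP genes were above background without exception. The WOX, bHLH, WRKY and NAC lists had the smallest shares above it.

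The growth-regulating factors (GRF) promote cell proliferation in young organs. Of 10 genes, 8 were bright, 1 was in the middle and 1 dim, with a median of 11.30. GRF6 read 12.59, 12.48 and 12.59, GRF1 11.90, 11.59 and 11.74, and GRF11 11.70, 11.61 and 11.65. Replicate 1 was the highest array for 8 of the 10 genes and replicate 2 the lowest for 8. Their median deviations from each gene's own mean there were 0.09 and -0.11, beside -0.01 and -0.02 over all genes. GRF12, the dim member, averaged 7.85.

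All 11 listed SPL genes, targets of the phase-change microRNA miR156 for the most part, were above background, 4 of them bright. SPL15 averaged 12.45, IPA1 12.08 and SPL9 11.01. The 7 TCP genes of the PCF type were above background too, 6 in the middle and 1 dim. PCF7, PCF8 and PCF2 averaged 10.50, 9.99 and 9.97. Another PCF8 probe set averaged 7.10.

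The YABBY list held 3 bright and 3 middle genes of 7. OsYAB1 averaged 12.58, OsYAB3 11.79 and OsYAB7 10.68. OsYABBY7, at background, averaged 4.05. The other OsYAB1 probe set averaged 4.21, so its class rests on the brighter one. KNOX genes were above background in 7 of 9 cases, led by OSH1, by HOS58 of the class II group (11.82) and by OSH71 (10.11). OSH43 was undecided and HOS66 at background (3.27). Replicate 1 was the highest array for 5 KNOX genes and the lowest for 4.

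HD-Zip genes numbered 33, of which 26 were above background and 8 bright. The brightest were the epidermal class IV genes ROC5 (11.76 on each array, SD 0.003) and ROC2 (11.76) and the class III gene HOX33 (11.54). Class III genes set the upper face of organs. Of the 7 at background the lowest were Roc7, Roc8 (3.73) and Hox28 (3.90). ROC genes thus lay at both ends of the range.

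By contrast, 1 of 7 WOX genes was above background, OsWOX13, at 9.02. OsWOX11 (5.61) and OsWOX6 (5.55) were undecided, and OsWOX9 (5.58), OsWOX4 (5.11), OsWOX7 (4.10) and OsWOX10 (3.90) were at background. WOX genes act in the upkeep of stem cells. Among 6 WRKY genes, which act mostly in defence, 3 were above background, WRKY9 at 10.08, WRKY51 at 8.36 and OsWRKY71 at 6.59, and OsWRKY62, OsWRKY24 and OsWRKY76 were at background, between 3.29 and 4.37.

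Of 8 NAC genes 4 were in the middle, led by NAC068 (10.16), NAC048 (9.40) and NAC067 (8.82), and 4 were at background, with NAC076 (3.56), NAC010 (3.68) and NAC2 (4.33) the lowest. Basic helix-loop-helix genes with a matching symbol numbered 12, 5 of them above background. bHLH080 averaged 11.40, LAX1 9.30 and bHLH081 8.44. EAT1 (4.01), BHLH175 (4.15) and TDR (4.99) were lowest, and EAT1 and TDR are regulators of the tapetum.

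The bZIP list had 15 of 21 genes above background, led by BZIP39 (11.24) and the abscisic acid factors TRAB1 (11.21) and BZIP23 (11.14). OsbZIP83 was undecided, with 5.83, 6.77 and 6.62. OsbZIP70 (3.42), OsbZIP49 and BZIP52 (4.91) were the lowest of 4 at background. Heat shock factors were above background in 17 of 20 cases and none was bright. HSFB4B averaged 10.49, HSFA1 10.30 and HSFA2E 10.23, and HSFC1A (4.77) was at background.

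Of 11 MYB genes 7 were above background, with the sugar response factors MYBS2 (11.88) and MYBS3 (11.56) and then MYB15 (9.47) at the top. OsMyb4, which responds to cold, read 7.48, 8.68 and 8.46. MYBAS1 (3.37), MPH1 (4.56) and MYB2 (4.96) were the lowest of 4 at background. In the AP2 and ERF list, 8 of 13 were above background, among them EREBP1 (12.18, with another probe set at 4.92), SMOS1 (11.48), an AP2-type factor of organ size, and DREB2B (8.90). At background were 5 genes, the lowest DREB2D (3.89), FZP (4.42) and DREB1G (4.52).

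NF-Y genes, subunits of the CCAAT-binding complex, were above background in 8 of 11 cases. HAP3B averaged 11.91, HAP3C 10.94 and HAP5D 10.59, and HAP3H (3.54), NFYB1 (4.71) and HAP3I (4.73) were at background. In the list of GATA, DOF and zinc finger homeodomain genes 11 of 12 were above it, with ZHD10 (11.57), DOF4 (10.76) and GATA20 (10.37) at the top and ZHD2 (5.35) at background. The G1-like genes G1L2 (11.07), G1L1 (9.71) and TH1 (6.57) were above background and G1L9 (3.99) was at it. The MADS-box list had 31 members, 9 bright, 8 in the middle, 3 dim and 11 at background, the lowest of these OsMADS21 (3.04), OsMADS25 (3.06) and OsMADS57 (3.13). The widest MADS-box gene of the list was OsMADS55, related to short vegetative phase genes, with 8.51, 7.47 and 8.08.

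**Figure D3:**
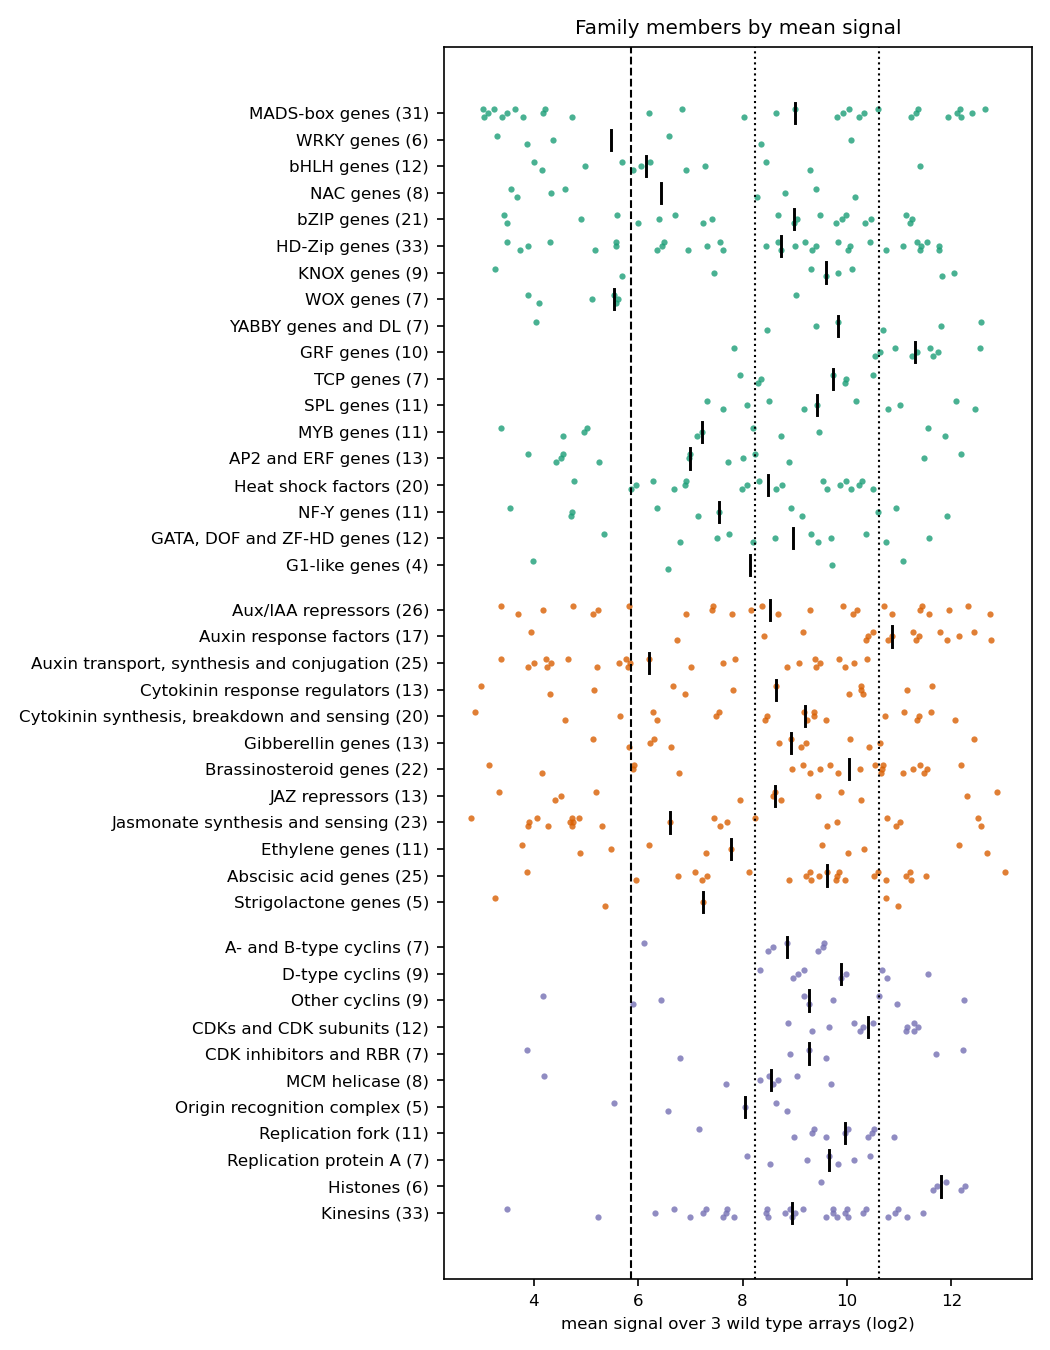
Mean log2 signal over the 3 wild type arrays (x axis) of every family member, 1 point per gene, by family (y axis, number of genes in brackets), with transcription factors in green, hormone lists in orange and cell cycle lists in violet. Black bars are family medians, the dashed line is the mean background level (5.86) and the dotted lines bound dim (8.24) and bright (10.61); growth-regulating factors (median 11.30), histones (11.81) and auxin response factors (10.87) lie to the right of the bright limit.

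The 12 hormone lists hold 213 genes, of which 156 (73.2%) were above background, 54 (25.4%) bright and 44 (20.7%) at background. Over genes with a name these shares were 78.2%, 26.6% and 18.7%, and over all genes 74.0%, 18.5% and 22.8%. Receptor and response genes led several of these lists. Auxin response factors bind auxin-responsive promoters, and 10 of 17 were bright, with a median of 10.87. ARF23 read 12.81, 12.74 and 12.75, ARF12 12.48, 12.35 and 12.45, and ETTIN2 12.18, 12.10 and 12.14. ARF13 (3.95) was at background. The median SD of the list was 0.042, against 0.046 for bright genes and 0.081 for all genes.

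Aux/IAA proteins repress those factors until auxin removes them. Of 26 genes 8 were bright, 6 in the middle, 5 dim, 1 undecided and 6 at background. IAA3 averaged 12.73, with another probe set at 5.01, IAA17 12.31 and IAA5 11.95. IAA16 (3.37), IAA12 (3.70) and the IAA20 gene LOC4340245 (4.17) were the lowest. In the list of auxin transport, synthesis and conjugation 12 of 25 were above background and 0 bright. GH3.1 and GH3.4, of the family that conjugates auxin to amino acids, averaged 10.38 and 10.14. The kinase gene OsPID, which steers auxin transport, read 10.42, 9.42 and 10.03. ILL3 (3.38), IAMT1 (3.90) and PIN5A (4.00) were the lowest of 8 at background.

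Cytokinin is sensed by histidine kinases and relayed by phosphotransfer proteins to response regulators. The relay genes AHP2 (12.06) and AHP1 (11.37) and the receptor gene HK3 (11.61) led the 20 genes of synthesis, breakdown and sensing, of which 6 were bright and 16 above background. CHARK (4.59) and the cytokinin oxidase gene CKX1 (2.87) were at background, and LOGL5 was undecided, at 5.74, 6.68 and 6.68. Of 13 response regulators 10 were above background. RR24 and RR21, of the B type that binds DNA, averaged 11.63 and 11.15, RR6 10.31, and RR41 (2.99), RR33 (4.32) and RR9 (5.16) were at background.

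GID1, the gibberellin receptor, averaged 12.44 with an SD of 0.002, and its other probe set averaged 4.31. The synthesis gene KS1A (10.64) and SPY (10.42), a repressor of gibberellin responses, followed, and EUI (5.15), which inactivates gibberellin, was at background. KS1A rests on a probe set whose suffix marks possible binding to related sequences. In all, 11 of 13 gibberellin genes were above background. Brassinosteroid genes were above background in 18 of 22 cases and 9 were bright, with BRI1, the receptor, at 12.19, GSK1 at 11.52 and SMOS1 at 11.48. The other GSK1 probe set averaged 4.59. BKI1 (3.14) and BHLH175 (4.15) were at background. CYP734A6, which inactivates brassinosteroids, read 8.46, 9.72 and 9.29. CYP734A4, in the same list, had the reverse order, with 7.24, 6.18 and 6.95.

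JAZ proteins repress jasmonate responses until the receptor COI1 binds them. JAZ1 read 12.86, 12.86 and 12.87 and JAZ7 12.12, 12.40 and 12.37, both bright, and JAZ8 averaged 10.27. Of 13 JAZ genes 9 were above background. JAZ2 (3.33), JAZ9 (4.41) and JAZ13 (4.52) were the lowest of 4 at background. JAZ11 read 7.29, 8.47 and 8.09. The receptor genes COI1 (12.57), COI1B (12.52) and COI2 (11.02) were bright as well. In the same list of synthesis and sensing 11 of 23 genes were at background, the lowest being LOX2.1 (2.79), LOX9 (3.89) and OPR1 (3.90).

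EIL1A (12.68), a factor that switches on ethylene genes, ERS1 (12.14) and ETR2 (10.33), both receptors, led 11 ethylene genes, of which 7 were above background. ETR2 had another probe set at 3.77. ACS2 (3.78) and ACS1 (5.48), which make the ethylene precursor, and the receptor gene ETR4 (4.89) were at background. Abscisic acid genes were above background in 23 of 25 cases. ABA8OX2, which breaks abscisic acid down, read 12.99, 13.03 and 13.07, the receptor gene OsPYL11 averaged 11.51, the kinase gene OsSAPK8 11.23, and VP1 (3.87), the seed maturation factor, was at background. Of 5 strigolactone genes D14 (10.98), the receptor, and D53-L (10.74) were bright, D3 (7.24) was dim, and the synthesis genes CCD7 (5.36) and CCD8A (3.25) were at background. The other D53-L probe set averaged 4.27.

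Few cell cycle genes were at background. Of 114 genes in 11 lists, 107 (93.9%) were above background and 5 (4.39%) at it, beside 74.0% and 22.8% of all genes. Bright were 24 (21.1%), beside 18.5% of all genes. Over genes with a name, from which the lists were drawn, 78.2% were above background, 18.7% at it and 26.6% bright. With the lowest probe set of each gene in place of the highest, 13 of the cell cycle genes were at background. Histone genes, 5 H2B genes and CenH3, were bright in 5 of 6 cases, with H2B.5 at 12.26, H2B.6 at 12.19 and H2B.7 at 11.89.

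All 9 listed D-type cyclin genes, which start the cycle, were above background and 3 were bright, CYCD4-1 (11.56), CYCD4-2 (10.77) and CYCD5-3 (10.67). All 7 listed A- and B-type cyclin genes, which act in S phase and mitosis, were above it with 0 bright. CYCA2-1 averaged 9.56, CYCA1-4 9.53 and CYCB1-1 9.44. Of the other 9 cyclins 7 were above background, led by CYCT1-1 (12.23), CycC1;1 (10.96) and CYCL1-1 (10.61), and CYCF2-2 (4.17) was at it.

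All 12 listed kinases and subunits were above background. CDKF-4 averaged 11.36, CDKG-2 11.29 and CDKA-1, the central kinase of the cycle, 11.28, each with another, dimmer probe set, down to 4.98 for CDKA-1. The inhibitors EL2 (12.23) and KRP5 (11.70) were bright and OsRBR2 (9.60) of the retinoblastoma family was in the middle. KRP1 (3.86) was at background. Kinesins numbered 33, with 31 above background and KIN14C (11.45), KIN7C (11.15) and KIN13B (10.97) at the top. KIN14B (3.49) and KIN7A (5.24) were at background. No listed cyclin, kinase or kinesin gene had an SD of 0.5 or more.

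Replication genes were above background in 29 of 31 cases and mostly in the middle class. MCM2 averaged 9.69, MCM3 9.04 and MCM9 8.68, and MCM8 (4.20) was at background. In the origin recognition complex, ORC2 averaged 8.85, ORC1 8.63 and ORC4 8.04, and ORC3 was undecided. At the fork, FEN1B (10.89), a flap nuclease, RFC1 (10.51), which loads the clamp, and PCNA (10.47), the clamp, were highest. Replication protein A, which holds single-stranded DNA, was led by RPA14 (10.45), RPA1A (10.14) and RPA2C (9.83).

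The spread among the 3 arrays was small for most genes. The median SD over all genes was 0.081 on the log2 scale, and 0.071 over genes above background. It was 0.046 for bright, 0.069 for middle, 0.12 for dim, 0.19 for undecided genes and 0.11 at background. An SD of 0.5 or more was found for 206 of 17905 genes (1.15%), 111 of them above background. Without replicate 1 the count was 75, without replicate 2 149 and without replicate 3 406. These SDs rest on fewer arrays than those behind the 206, so the counts are not directly comparable. The arrays correlated at 0.997 to 0.998 over all probe sets other than the Affymetrix controls.

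Replicates 1 and 2 lay at opposite ends for nearly all of those 111 genes. In 109 of them (98.2%) replicate 3 lay between the other arrays, against 41.9% of all genes above background. Replicate 1 was highest and replicate 2 lowest in 45, and the reverse held in 64. Replicates 1 and 2 differed by at least 1 on the log2 scale for 103 genes above background, replicates 1 and 3 for 22 and replicates 2 and 3 for 11. Of the 111, 37 had a name.

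The genes high on replicate 1 included the whole MCM2 to MCM7 helicase. MCM7 read 9.08 on replicate 1, 7.33 on replicate 2 and 8.59 on replicate 3, and MCM6 read 8.39, 6.69 and 7.95. MCM4 read 9.18, 7.66 and 8.69. All 6 subunits were highest on replicate 1 and lowest on replicate 2, with SDs from 0.57 to 0.90. MCM2 read 10.30, 8.96 and 9.82, MCM3 9.56, 8.43 and 9.11, and MCM5 9.21, 7.86 and 8.67. MCM9, which is no part of that hexamer, read 8.64, 8.67 and 8.74.

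Several other replication genes had the same order. RPA2A read 8.74, 7.24 and 8.28, RPA1B 9.16, 7.67 and 8.75, and PCNA 10.98, 9.90 and 10.54. ORC3 read 6.13, 4.77 and 5.70. Of the 25 replication genes other than MCM2 to MCM7, 22 were higher on replicate 1 than on replicate 2, and 17 had replicate 1 highest with replicate 2 lowest. Over all genes above background the counts were 6901 and 2970 of 13257, and 18 of 23 ribosomal protein genes were higher on replicate 1. The median difference of replicate 1 from replicate 2 was 0.19 over these 25 genes and 0.30 over all 31, against 0.07 over ribosomal protein genes and 0.01 over all genes above background. The lists were written with earlier results of these arrays known, so these counts are no support for the direction. The retinoblastoma gene OsRBR1, which holds back entry into S phase, read 9.41, 8.37 and 8.96.

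Between replicates 1 and 2 the A- and B-type cyclins and the kinases had no shared order. Replicate 3 was the highest array for 5 of 7 A- and B-type cyclins and for 6 of 12 kinases and subunits. D-type and other cyclins are not in the count that follows. Among the 19 A- and B-type cyclins, cyclin-dependent kinases and kinase subunits, not all of which act in mitosis, 8 were higher on replicate 1 and 11 on replicate 2, with a median difference of -0.05. CDKB2-1, a kinase of mitosis, read 9.67, 9.60 and 9.71. The 11 cell cycle genes above background with an SD of 0.5 or more were all higher on replicate 1. No test of this difference between lists was made.

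Among the genes high on replicate 2 were several of abscisic acid, cold and salt responses. ABA8OX1, which breaks abscisic acid down, read 7.71, 9.72 and 9.24, and DREB1A, a regulator of cold responses, 6.57, 8.59 and 8.03. The calmodulin-like gene CML10 read 9.72, 11.67 and 11.05, and its other probe set averaged 3.56. All 3 were lowest on replicate 1. The salt-induced gene salT read 8.24, 10.10 and 9.48, DREB1B 7.28, 8.86 and 7.91, and the lipid transfer gene LTP-2 6.16, 8.11 and 7.59.

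Of 15 genes in the list of abscisic acid and stress products, 11 were higher on replicate 2 than on replicate 1, and 7 had an SD of 0.5 or more. Over all 17905 genes these counts were 8771 and 206. RAB16B, a dehydrin gene, read 11.62, 12.75 and 12.39, while the related RAB21 averaged 12.94 (SD 0.062). That list was written after the spread of these arrays had been seen, so its count is no support for the direction. RAB21, RAB16B and P5CS1 (12.18), which makes proline, were its brightest members. DREB1G (4.52), DREB1C (4.57) and DREB1E (5.25) were among 4 at background.

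**Figure D4:**
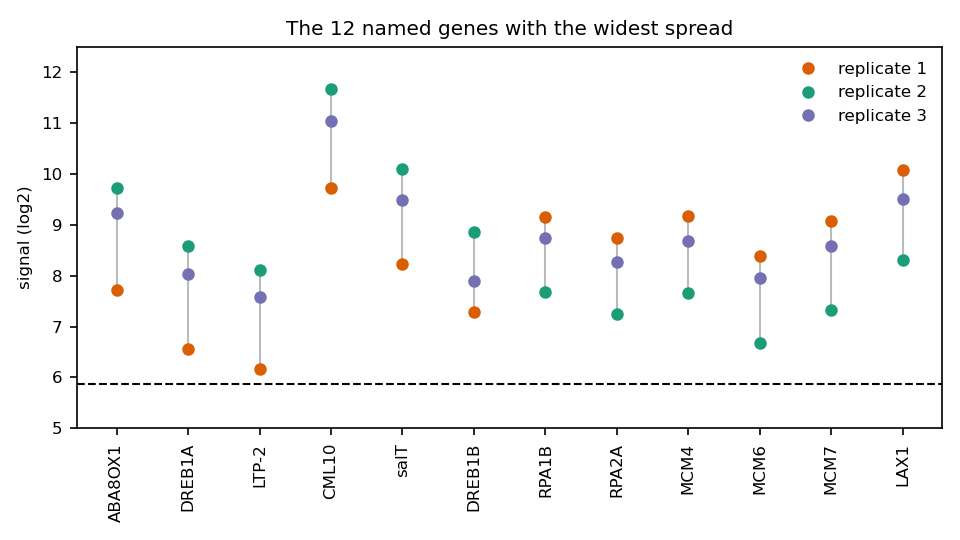
Log2 signal (y axis) of the 12 named genes above background with the largest SD over the 3 wild type arrays (x axis), 1 point per array. ABA8OX1, DREB1A, LTP-2, CML10, salT and DREB1B are lowest on replicate 1 and highest on replicate 2, RPA1B, RPA2A, MCM4, MCM6, MCM7 and LAX1 the reverse, and replicate 3 lies between in each.

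Of the 41 families, MCM genes were the one whose median deviation reached 0.2, at 0.62 on replicate 1, -0.73 on replicate 2 and 0.11 on replicate 3. Over members above background alone, the NAC list passed as well, at -0.32 on replicate 1 and 0.25 on replicate 2, against -0.12 and 0.05 over all its members. Next by size, over all members, were the origin recognition complex (0.07, -0.16 and 0.09), KNOX genes (0.11, -0.15 and 0.03), the replication fork (0.12, -0.15 and 0.03) and TCP genes (-0.13, 0.04 and 0.05). All genes had median deviations of -0.01, -0.02 and 0.03. Ribosomal protein genes lay at 0.03, -0.01 and -0.01.

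**Figure D5:**
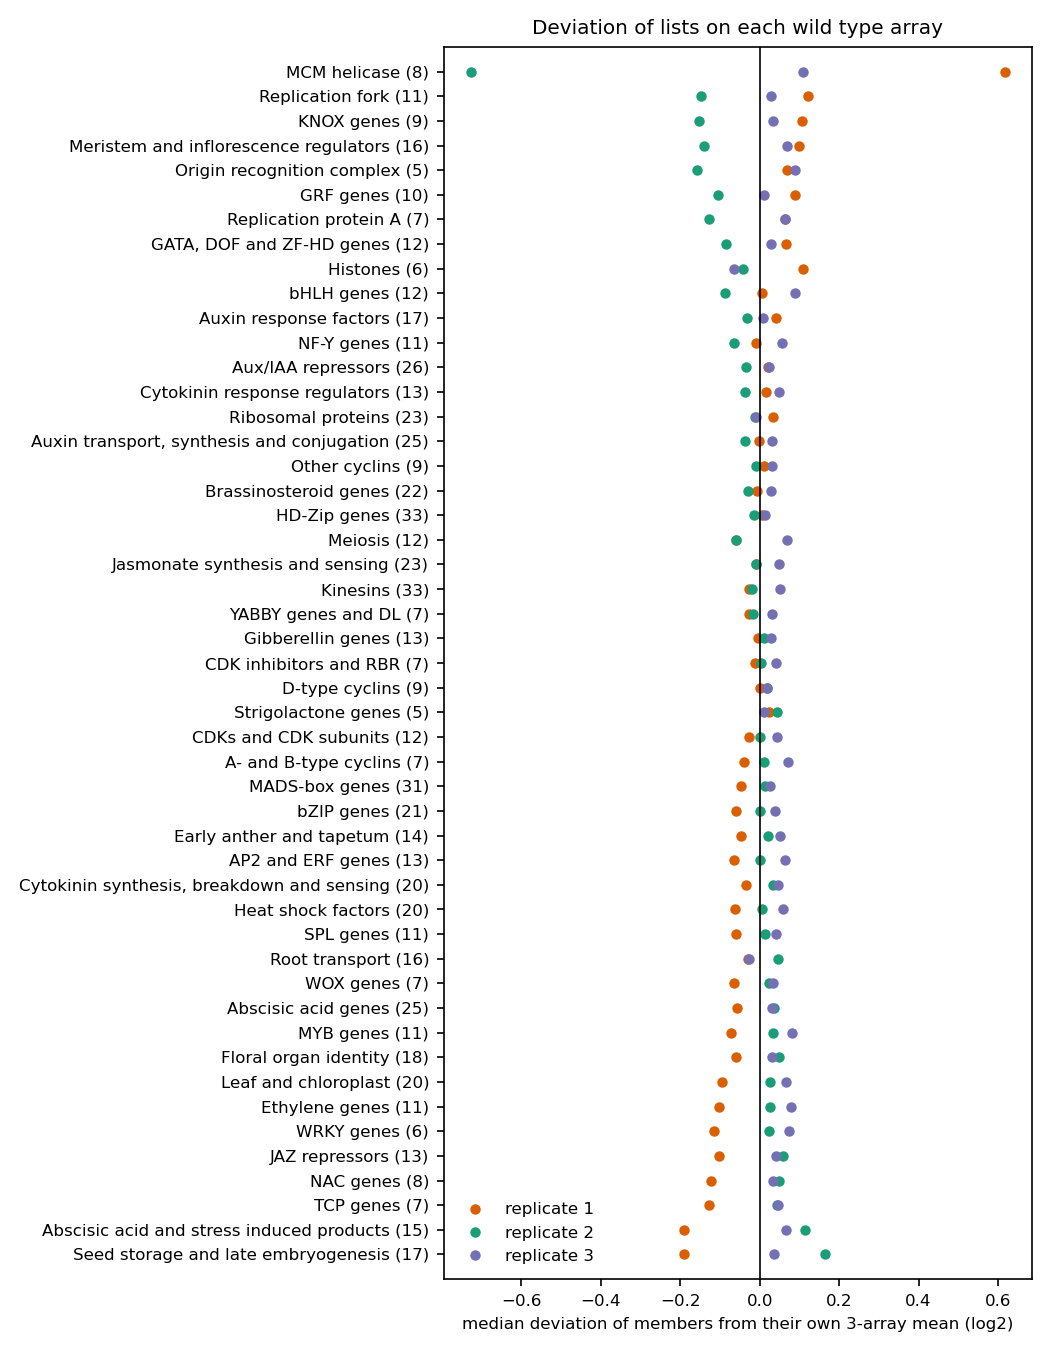
Median deviation of a list's members from their own 3-array mean (x axis, log2) on each wild type array, for each list of at least 5 genes (y axis, number of genes in brackets). MCM genes lie farthest out, at 0.62 on replicate 1 and -0.73 on replicate 2, and seed storage and late embryogenesis genes lie at -0.19 and 0.16.

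The label of young inflorescence was set against marker genes. Beside these lists, 74.0% of all genes were above background, 22.8% at it and 18.5% bright. Early anther genes were mostly low. MSP1, which limits the number of cells that enter meiosis, averaged 11.39, MTR1 9.09 and GAMYB 8.73, while EAT1 (4.01), PTC1 (4.24) and RTS (4.31), genes of the tapetum, were at background. In all, 5 of 14 were above background, 4 undecided and 5 at it. CYP703A3, an enzyme of the anther cuticle and pollen wall, read 5.01, 7.13 and 6.81, which is below background on replicate 1 alone. None of 4 late pollen and anther genes was above background on all arrays. EXPB10 (3.57), EXPB9 (3.99) and SWEET5 (4.36) were at it, and OsC4 read 5.79, 8.61 and 7.85, again below it on replicate 1 alone.

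Of 12 meiosis genes 11 (91.7%) were above background, beside 74.0% of all genes and 78.2% of genes with a name. MEL1, a germ cell Argonaute, averaged 11.77, SPO11-4 11.30 and PAIR2 9.90, and PAIR1 (3.88) was at background. DMC1, the recombinase of meiosis, was dim, at 6.91, 6.98 and 6.99.

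Markers of other tissues were mixed. Over all genes 74.0% were above background and 22.8% at it, and over genes with a name 78.2% and 18.7%. Of 20 leaf and chloroplast genes 13 were above background, led by LIR1 (12.71), OEE3 (10.44) and CHLG (9.90), and RBCS1 (3.14), CHLI (4.90) and RCABP69 (4.90) were at it. Of 17 seed storage and late embryogenesis genes 8 were above background, 3 of them bright, 2 were undecided and 7 at background. Of the 6 with a glutelin symbol 5 were at background, the lowest GLUA-3 (3.17) and GLUD1 (3.67), and GLUA-2 (7.51) was dim. RAB21 (12.94), RAB16B (12.25) and EM (11.03) of the same list were bright. Of 16 root transport genes 11 were at background, the lowest being PHT1-6 (2.79), PHT1-7 (3.47) and IRT2 (3.72), and PHT1-1 (9.50), Lsi6 (7.86) and NRT2.3 (6.59) were highest. Of the defining markers of the labelled tissue, 9 of the 18 floral organ identity genes were bright and 3 at background, as given above. Of the 16 meristem and inflorescence regulators 3 were bright, OSH1 among them, and 2 at background, FZP among them. That bright share, 18.8%, was near the 18.5% of all genes. LAX1 and OsMADS34 were in the middle.

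Among controls of RNA and labelling, the 5 prime probe set of the bioB spike differed by more than most genes, at 7.59, 7.42 and 7.90 on replicates 1, 2 and 3. The 3 prime minus 5 prime difference was 5.13, 5.24 and 5.17 for actin and 0.39, 0.52 and 0.51 for GAPDH, and the 5 prime probe set of the dap spike read 7.06, 7.01 and 7.24. Their part in the spread was not tested. Among the nuclear chromosomes, the share of genes above background ran from 67.1% on chromosome 11 to 78.4% on chromosome 3. Genes with several probe sets numbered 3444, and in 1333 of them (38.7%) the brightest was above and the dimmest at background. Of the 668 list members, 87 rest on a probe set whose suffix marks possible binding to related sequences. In 44 list members above background, the dimmest probe set averaged under the mean background level.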

How the data were processed

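The authors deposited log2 signals per probe set, 1 column per array, for 57381 probe sets. Per the submitters' processing notes, RMA and Partek were used, with no version given. RMA subtracts background, brings the arrays to a common distribution and combines each set's probes into 1 value. The log2 scale was inferred from the range of the deposited values. Detection calls were not given in the sources used here, so fungal control probe sets set the background.

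The values of the 3 wild type arrays were used as deposited. Probe sets went to genes through the GEO platform annotation, in which 22436 had 1 gene, and names and chromosomes of all 17905 genes came from RefSeq (assembly ASM3414082v1) through the gene number. No sequences were used. Deviation is a value minus the gene's mean over the 3 arrays.

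Members and lists (41 families, 10 marker lists, 668 genes) were chosen by symbol with earlier results of these data known. Named are the 12 brightest named genes, the 12 above background with the largest SD, and per family the 3 brightest members, the widest with an SD of at least 0.5 and up to 3 of the lowest at background. All floral organ identity and meristem genes are also named, and a few further members were chosen after their values were seen. Python 3.11.15, pandas 2.3.3, numpy 2.4.6 and matplotlib 3.10.9 were used, and the class and spread rules were tested on simulated data. Those data set gene levels away from the background limit and gave wide genes a fixed shift, so borderline calls were not tested. Alternatives left out an array or changed the background level, the probe set per gene, the limits, the call rule or the normalization. The number of arrays limits the precision.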

Additional observations from a re-analysis of the deposited data

Results flagged for a closer look

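A signal was present in data that the gene lists do not use. Of 34663 probe sets with no gene listed in the annotation, 8087 (23.3%) were above background on all 3 wild type arrays, against 68.3% of the 22436 probe sets with 1 gene. Their median level was 4.47, against 8.12. They have no gene name here and enter no count of genes. Groups of 3 arrays are too small for a check for single outlying arrays.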

How the results depend on the processing

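No paired analysis was possible because the arrays form 1 group and the results come from no test. Of 157 values of the main results under the alternatives, 135 moved by less than the limit for a change, 22 moved and 0 reversed; per list, 87 of 1107 counts and 31 of 480 median deviations moved. With 1 array left out, undecided genes numbered 298 to 449, the lower level of bright was 10.59 to 10.60 and the upper level of dim 8.16 to 8.24. Genes with an SD of at least 0.5 then numbered 75 without replicate 1 to 406 without replicate 3. The 206 come from SDs over all 3 arrays, so these counts are not directly comparable with it. With the mean of the fungal controls as background, 2397 genes, 33 transcription factor genes and 26 hormone genes were at background, and the levels were 10.47 and 7.51. With the highest reporter control the levels were 10.65 and 8.42, with the median probe set per gene 10.44 and 7.91, and with the lowest 10.49 and 7.97, where 13 cell cycle genes were at background. Fixed limits of 7 and 10 made 5061 genes and 37 cell cycle genes bright. Calling by the mean over arrays left 0 undecided by construction. Over genes above background alone, 111 had an SD of at least 0.5 and 2 families a median deviation of at least 0.2. The causes were not tested. Signals near the controls limit what can be called at background.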
